A study of Mus musculus with 2 samples.

Results

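Mitochondrial ribosomes are the machines inside mitochondria that translate the few messenger RNAs of the mitochondrial genome, all of which encode subunits of the respiratory chain and the ATP synthase. Their ribosomal RNAs are made in the organelle, while every protein of the large and the small subunit is encoded in the nucleus, made in the cytosol and imported. Some of these proteins descend from bacterial ribosomal proteins and others have no bacterial counterpart. Skeletal muscle fibres are rich in mitochondria and depend on this translation for oxidative metabolism.

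The genes described are those whose names begin with Mrpl, for the large subunit, or Mrps, for the small subunit, followed by a digit. The name pattern took 83 genes, and 5 pseudogenes were left out, so that 78 members remained of 55536 genes in the tables: 49 of the large and 29 of the small subunit. Members had to have at least 1 transcript annotated as protein coding, and no measured value was used to choose them. The study sequenced total RNA, with ERCC spike-ins and from 300 ng per library, of the gastrocnemius, a calf muscle. It came from 2 adult female B6CASTF1/J mice, a cross of B6 with CAST, aged 8 to 10 months, with 1 library per animal. The labels give no treatment, altered gene or second group, so there was no test between groups and no p-value, and differences between the animals are described by size. Animal 1 of the labels is replicate 1 and animal 3 is replicate 2; their donor identifiers are the same in the labels, but each has its own tissue sample and animal number, and they were counted as 2 animals. Values are TPM, a transcript level scaled for length and library, from the gene tables of the first of 2 deposited quantifications unless the second is named.

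The tissue label was checked against defining markers. All 6 skeletal muscle genes were high, with a sum of 92480 and 81300 TPM, whereas the 3 liver, 3 brain and 2 brown adipocyte markers each summed, by tissue, to at most 0.28 TPM in either animal, with Ucp1 at 0 in both. White adipocyte markers summed to 2.72 and 1.66 TPM and macrophage markers to 2.49 and 2.65 TPM. Of the 3 cardiac muscle markers, the myosin gene Myh6 had 55.9 and 53.2 TPM, while Nppa and Myl7 had at most 0.16 TPM. Replicate 1 held 42714567 expected counts and replicate 2 held 43421652. The animals stood apart in 2 respects. The 7SL RNA genes held 27.0% of TPM in replicate 1 and 33.6% in replicate 2, which lowers every other TPM in replicate 2 by construction. The 3 Schwann cell markers summed to 40.3 TPM in replicate 1 and 6.3 TPM in replicate 2, with log2 ratios from -2.71 to -2.11; fibroblast markers summed to 103 and 75.3 TPM and endothelial markers to 33.7 and 26.5 TPM. The part of these cells in the differences below was not tested. In bulk tissue, fewer cells of a type and less RNA per cell cannot be told apart.

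Mitoribosomal genes were expressed almost without exception. A level of at least 1 TPM in both animals was reached by 77 of 78 members, while 44.1% of all 21938 nuclear protein-coding genes reached it. Mrpl23, discussed below, was the one that did not. The median member lay at the 78.1th percentile of the detected protein-coding genes. Together the members held 2581 TPM in replicate 1 and 2388 TPM in replicate 2. That was 0.535% and 0.552% of the TPM of nuclear protein-coding genes.

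The 2 subunits had nearly the same typical level. The median member of the large subunit was at 25.2 TPM in replicate 1 and 21.5 TPM in replicate 2. The median member of the small subunit was at 24.4 and 22.9 TPM. The large subunit was thus the higher in replicate 1 and the lower in replicate 2, and the ratio of large to small was 1.03 and 0.935, a mean of 0.984 ± 0.069 (SD, n = 2). The ratio of the mean levels was 1.18 and 1.16, above 1 in both animals, with a mean of 1.17 ± 0.019 (SD, n = 2). The median and the mean thus gave different answers, and 4 of the 5 members of at least 100 TPM belonged to the large subunit. Those 5 members held 25.1% of all member TPM. The summed levels were 1720 and 1579 TPM for the large subunit and 861 and 809 TPM for the small, a ratio of 2.0 and 1.95 with 49 against 29 members.

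**Figure D1:**
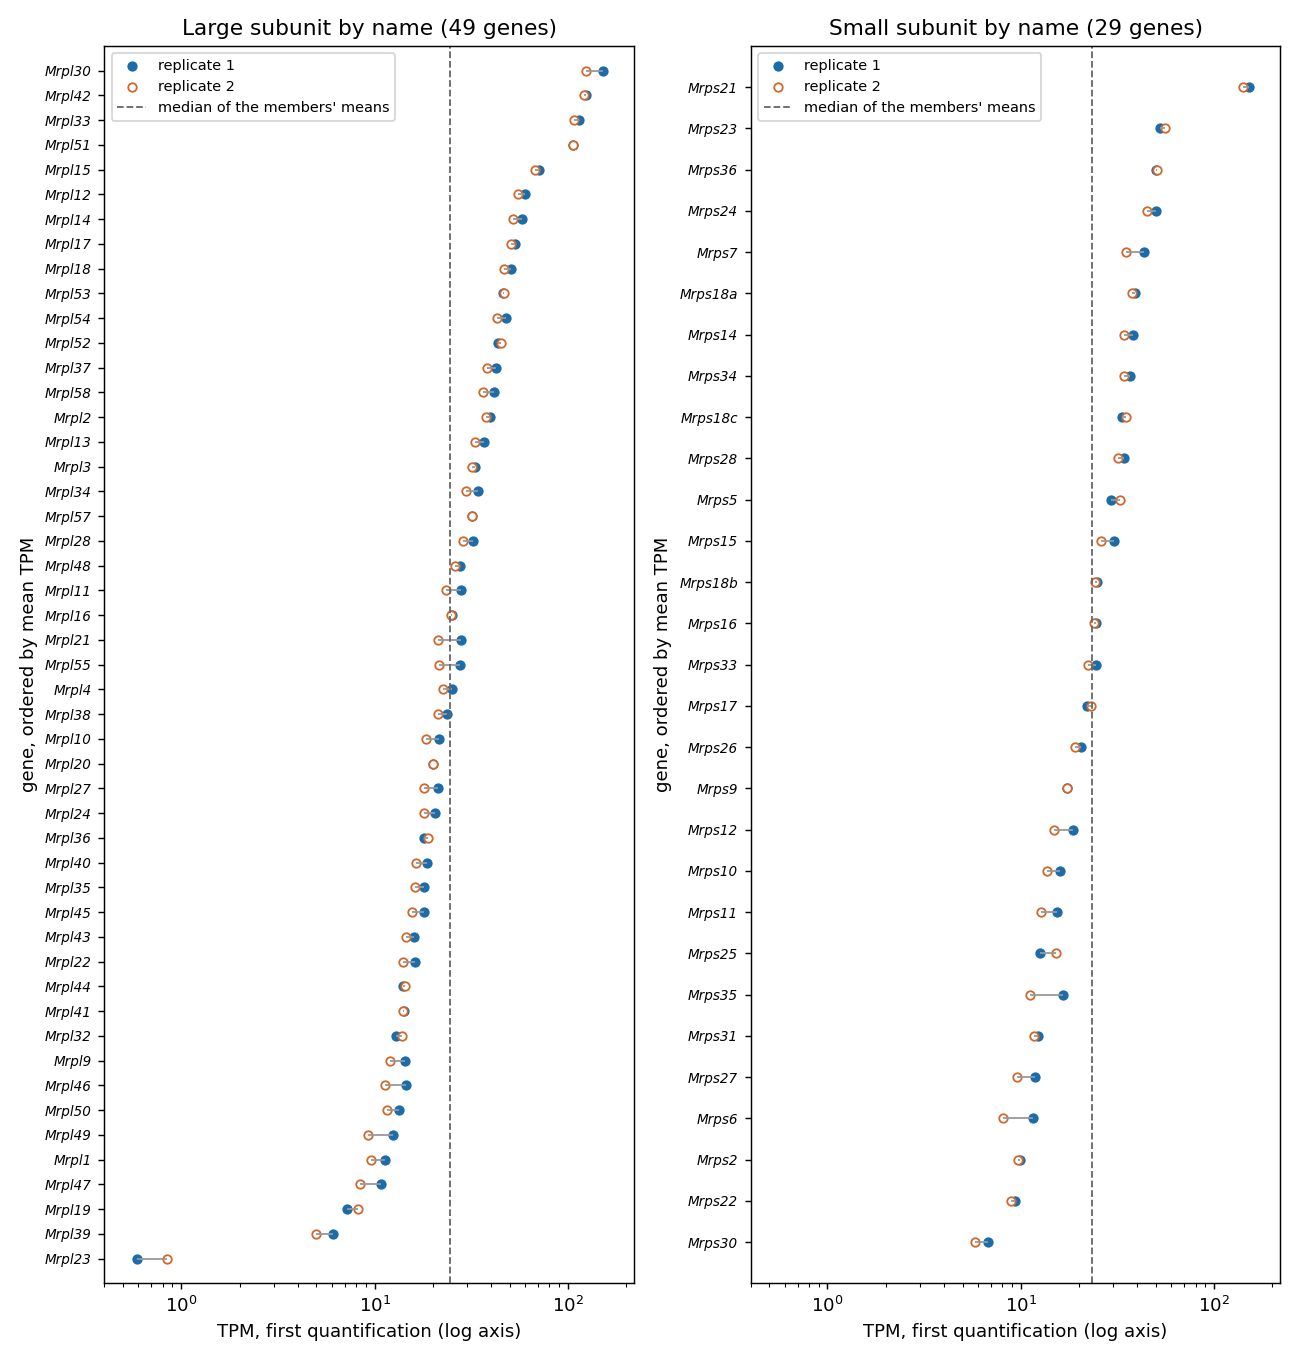
TPM of each of the 78 genes in both animals (log axis), with the large subunit on the left and the small subunit on the right; filled points are replicate 1, open points replicate 2, and the dashed line is the median over the genes' mean values. Most genes lie between 10 and 50 TPM in both subunits, 4 large subunit genes and Mrps21 lie above 100 TPM, and Mrpl23 lies far to the left of the others.

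Within each subunit the levels spread widely although a ribosome holds its proteins in fixed proportions. Of the 78 members, 59 had a mean of 10 to 50 TPM, 11 of at least 50 and 8 of under 10. Without Mrpl23 and over both subunits together, the highest member, Mrps21 of the small subunit, was 26.5-fold above the lowest, Mrpl39 of the large. The order of the members was nearly the same in both animals, with a Spearman correlation of 0.987 over the 78 genes, which share library and transcript lengths. Short genes tended to be the higher: TPM and effective length had a Spearman correlation of -0.61 over the members and of -0.17 over 9667 detected protein-coding genes, both given as descriptions. TPM is itself computed by dividing by effective length, so the measures are not independent.

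In the small subunit, Mrps21 (chr3:95862634-95871519, minus strand, mm10), the counterpart of bacterial S21, stood alone at 151 and 142 TPM. The next member, Mrps23, was at 52.4 and 55.3 TPM. Mrps24, the counterpart of bacterial S3, had 49.99 and 45.0 TPM, and Mrps7, a head protein of the small subunit, had 43.1 and 34.8 TPM. Mrps14 and Mrps34 followed at 38.1 and 34.1 TPM and at 36.5 and 34.0 TPM. Mrps21 was thus well above every other small subunit gene in both animals, while the ranges of Mrps7, Mrps14 and Mrps34 over the animals overlapped.

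In the large subunit, Mrpl30 (chr1:37890477-37898535, plus strand) had 151 and 124 TPM and Mrpl42 (chr10:95480805-95501940, minus strand) had 124 and 120 TPM. Mrpl33 was at 114 and 107 TPM and Mrpl51 at 106 TPM in both animals. These 4 lay above the fifth, Mrpl15, at 71.0 and 67.2 TPM, in both animals. The range of Mrpl30, the least even of the 4 between animals, nearly reached that of Mrpl42. Mrpl12, which forms part of the stalk that binds translation factors and is also known to bind the mitochondrial RNA polymerase, was at 59.6 and 55.4 TPM. Mrpl14, to which the assembly factor Malsu1 is known to bind, was at 57.5 and 51.7 TPM, and Mrpl17 at 53.0 and 50.6 TPM.

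The lowest members of the small subunit were Mrps30 at 6.79 and 5.81 TPM, Mrps22 at 9.37 and 8.84, Mrps2 at 9.88 and 9.66, Mrps6 at 11.6 and 8.05, and Mrps27, a pentatricopeptide repeat protein, at 11.8 and 9.5 TPM. The lowest of the large subunit were Mrpl23 at 0.59 and 0.84 TPM, Mrpl39 at 6.08 and 4.97, Mrpl19 at 7.18 and 8.24, Mrpl47 at 10.8 and 8.44, and Mrpl1 at 11.2 and 9.55 TPM. Low levels could still rest on many reads, since Mrps30 had 614 and 603 counts and Mrpl39 had 367 and 351. Mrpl23 had only 14.1 and 37.1 counts.

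The low value of Mrpl23, the counterpart of bacterial L23 at the exit of the peptide tunnel, depended on where shared reads were placed. Mrpl23 lies at chr7:142532686-142540747 on the plus strand, and the processed pseudogene Mrpl23-ps1 lies at chr2:74591330-74591909 on the minus strand. The 438 coding bases of its leading transcript are 100% identical to the pseudogene, with 0 differences and 0 gaps. Over the 543 bases that the whole transcripts share in an alignment, 2 differ. The first 150 coding bases of both are shown, in lower case throughout because no base differs.
Mrpl23: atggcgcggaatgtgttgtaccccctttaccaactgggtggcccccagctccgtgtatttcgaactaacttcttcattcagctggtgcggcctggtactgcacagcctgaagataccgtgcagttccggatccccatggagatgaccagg
Mrpl23-ps1: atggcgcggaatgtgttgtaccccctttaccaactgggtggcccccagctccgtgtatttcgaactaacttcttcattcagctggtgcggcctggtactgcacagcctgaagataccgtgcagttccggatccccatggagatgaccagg
The first quantification gave the pseudogene 920 and 901 counts, or 68.3 and 58.4 TPM, and left Mrpl23 with 1.51% and 3.95% of the counts of the pair. The second gave Mrpl23-ps1 0 TPM in both animals and Mrpl23 a mean of 60.6 TPM. The posterior SD of the count of Mrpl23 was 48.6% and 43.7% of its mean; for every other member it was at most 5%. The level of either gene alone is therefore uncertain. Their sum in the first quantification was 68.9 and 59.2 TPM, which would place Mrpl23 sixth in the large subunit.

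**Figure D2:**
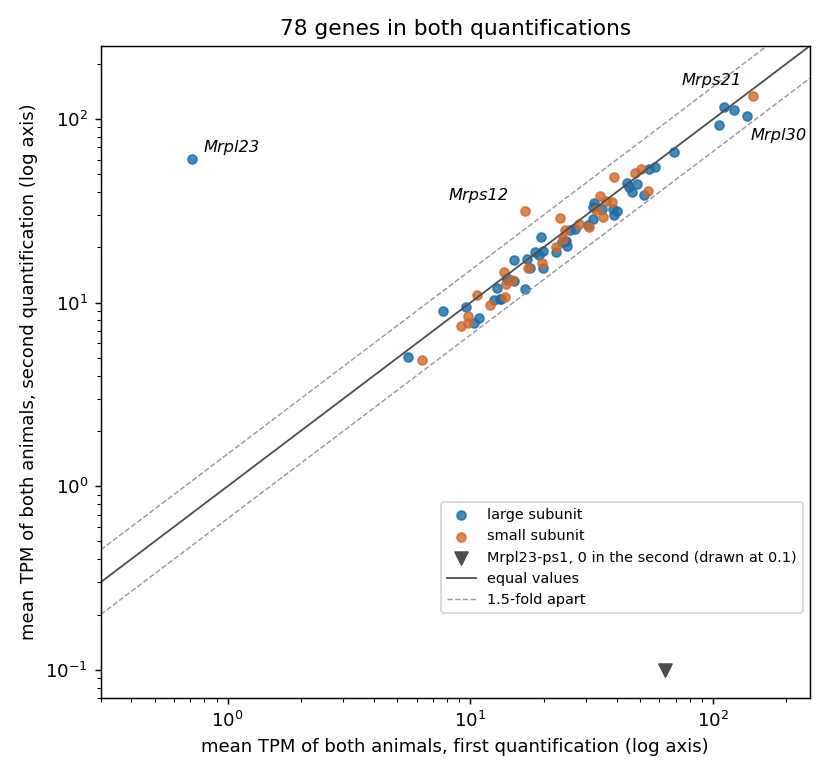
Mean TPM of both animals in the first quantification (horizontal, log axis) against the second (vertical, log axis) for the 78 genes; the solid line marks equal values, the dashed lines a 1.5-fold difference, and the triangle is the pseudogene Mrpl23-ps1, which is 0 in the second and is drawn at 0.1. Mrpl23 lies far above the line at 0.715 against 60.6 TPM, Mrps12 lies above it, and the other 76 genes lie within 1.5-fold.

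For Mrpl48 and its named pseudogene, the level of the member was similar in both quantifications, while that of the pseudogene was not. The pseudogene Mrpl48-ps (chr4:88599175-88599810, minus strand) differs from the 633 coding bases of Mrpl48-208 at 12 positions. Coding bases 300 to 449, the stretch of 150 with the most differences, are shown with the 7 differing bases in capitals.
Mrpl48: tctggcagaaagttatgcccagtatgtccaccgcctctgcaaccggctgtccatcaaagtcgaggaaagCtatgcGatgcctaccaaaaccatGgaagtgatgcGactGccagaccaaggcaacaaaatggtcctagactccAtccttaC
Mrpl48-ps: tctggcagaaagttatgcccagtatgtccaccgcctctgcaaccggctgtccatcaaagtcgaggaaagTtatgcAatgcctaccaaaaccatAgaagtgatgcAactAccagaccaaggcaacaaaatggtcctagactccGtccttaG
Mrpl48 had 916 and 952 counts with a posterior SD of 0.721% and 0.626% of the mean, and its mean level was 26.8 TPM in the first and 25.2 TPM in the second quantification. The pseudogene had 108 and 72.9 counts in the first, or 7.21 and 4.23 TPM. In the second it had 0.347 and 0.108 TPM, so its level depended on the quantification. Other members have processed copies too. With Mrpl23 and Mrpl48 included, 24 members had between them 43 annotated pseudogenes of at least 90% identity over at least 150 coding bases. Of these pseudogenes, 7 had at least 3 counts in both animals, Mrpl23-ps1 and Mrpl48-ps among them. Genes outside the family were not searched, so whether such copies are more common here was not tested. Mrpl53 also shares all 354 coding bases with Gm42688, an annotated protein-coding gene with 40.8 and 31.4 counts beside 766 and 888 for Mrpl53.

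The 2 quantifications otherwise ranked the members alike, with a Spearman correlation of 0.908 over 78 genes and 0.971 without Mrpl23. The typical member was somewhat lower in the second, with a median ratio of 0.912. Mrps12, the counterpart of the bacterial decoding protein S12, was the only other member to differ by at least 1.5-fold. It had 18.5 and 14.9 TPM in the first and 34.2 and 29.2 TPM in the second. The first placed 78.1% and 83.95% of its TPM in a coding transcript of 722 bases, and the second placed 53.4% and 48.3% in the processed transcript Mrps12-203 of 380 bases. A shorter transcript gives a higher TPM for the same reads, but the part of this in the difference was not tested. Mrps12 had 306 and 300 counts in the first quantification.

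In a minority of mitoribosomal genes, the transcript with the highest level was not annotated as protein coding. The members have 343 annotated transcripts, between 1 and 11 per gene. In 15 of 78 members, 19.2%, the transcript with the highest mean TPM was of another class, against 6.48% of 9662 detected protein-coding genes. In the second quantification the shares were 24.4% and 8.29%, and 17.9% against 4.87% met the criterion in both quantifications. The 15 comprised 8 large and 7 small subunit genes. Their leading transcript was annotated as a target of nonsense-mediated decay, a class for transcripts with an early stop codon, in 6 genes. It was a processed transcript, a class with no open reading frame assigned, in 5 genes and a retained intron in 4. These are annotation classes and not measurements of decay or of translation.

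Mrpl51 (chr6:125191801-125196269, plus strand) is the highest such member. Of its 106 TPM in each animal, 63.2% and 64.4% were placed in the processed transcript Mrpl51-202 of 855 bases. A further 32.0% and 32.1% went to the retained-intron transcript Mrpl51-203 of 580 bases. The coding transcript, of 3427 bases, held 4.78% and 3.54%. Read counts gave the coding transcript a larger part, 20.1% and 15.6%, since TPM divides by length.

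Other members also had little in coding transcripts. Mrps16 had 2.17% and 2.4% of TPM there, with 97.8% and 97.6% in the processed transcript Mrps16-202. Mrpl57 had 4.56% and 3.39%, Mrps26 had 4.58% and 3.68%, and both were led by a retained-intron transcript. Mrpl15 had 3.1% and 3.48% and Mrps14 had 3.54% and 6.31%, led by a processed transcript and by a transcript of the decay class. Mrps24, among the highest small subunit genes, had 9.02% and 14.7% and was led by a retained-intron transcript. In 12 of the 15 members the longest coding transcript was at least 2 times as long as the leading one, with medians of 3364 and 707 bases. Of the other 63 members this held in 9, but there the leading transcript is itself coding and can be the longest coding one. The share among other genes led by a transcript of another class was not computed.

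Over all 78 members the median coding share of TPM was 97.1%, close to the 95.7% of all detected protein-coding genes, so the shift concerned a minority. A coding share under 50% was found in 17 members, 21.8%, against 6.63% of those genes; by counts it was 12 members, 15.4%, against 3.72%. With coding transcripts alone, the median level was 18.8 ± 1.46 TPM for the large and 14.8 ± 0.771 TPM for the small subunit (SD, n = 2). The ratio of the medians was then 1.27 ± 0.033 (SD, n = 2), so the near equality of the subunits did not hold for coding transcripts. Which transcript of a gene carries the reads was itself uncertain: the leading transcript was the same in both quantifications in 62 of 78 members. Mrps21 was led by different coding transcripts in the 2 quantifications, at a similar gene level of 146 and 133 TPM.

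**Figure D3:**
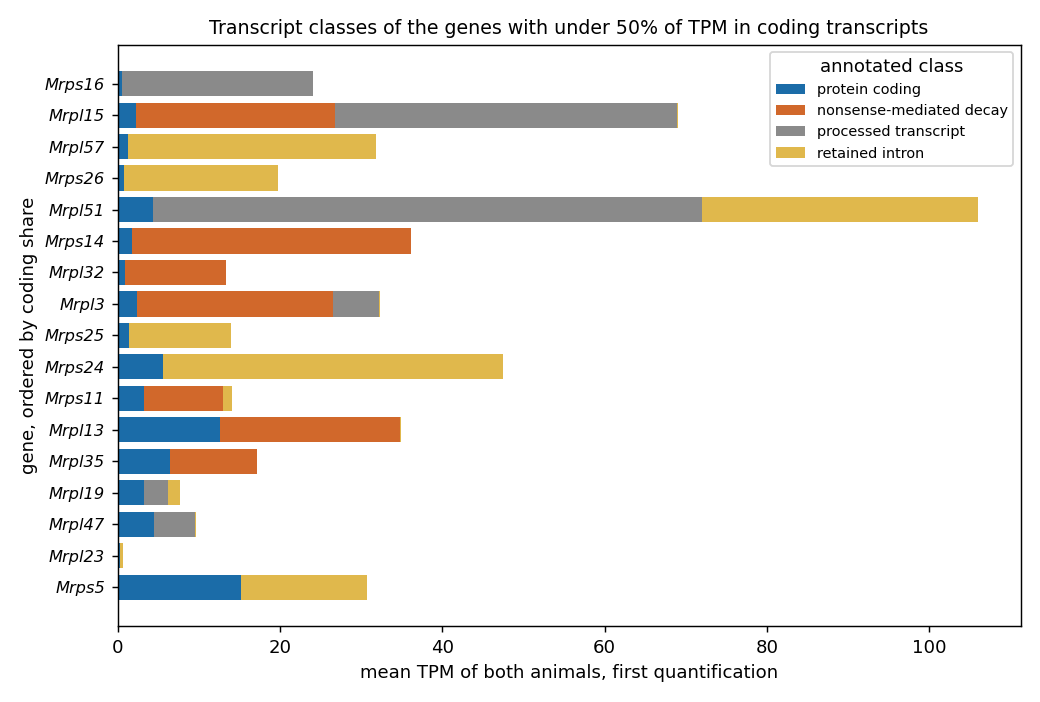
Mean TPM of both animals (horizontal) of the 17 genes with under 50% of their TPM in protein-coding transcripts, divided by annotated transcript class (colours), with the lowest coding share at the top. The protein-coding part is 4.16% in Mrpl51 and 2.28% in Mrps16, and the remaining classes make up the rest of each bar.

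Names and places in the ribosome differ for a few members. Mrps18 is a family of 3 paralogs, of which Mrps18c is the counterpart of bacterial S18, Mrps18b lies elsewhere in the small subunit and Mrps18a belongs to the large subunit by structure. Mrps18a was at 38.9 and 37.4 TPM, Mrps18b at 24.8 and 24.2 TPM, and Mrps18c at 33.2 and 35.2 TPM. Mrps18b was thus the lowest of the 3 in both animals, and all 3 lay above the median of their subunit. Mrps30, the lowest small subunit gene, is also a protein of the large subunit by structure. Mrps36, at 50.1 and 50.7 TPM, is now known as a part of the oxoglutarate dehydrogenase complex of the citric acid cycle. With subunits taken by structure, the ratio of the medians was 1.02 ± 0.095 (SD, n = 2).

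Mitoribosomal proteins whose names lack the prefix had levels in the same range. Chchd1 was at 56.7 and 51.1 TPM, Dap3, a GTP-binding protein of the small subunit, at 35.1 and 30.4 TPM, and Aurkaip1 at 35.0 and 33.3 TPM. Ptcd3, a pentatricopeptide repeat protein of the small subunit, was at 25.7 and 22.6 TPM. Gadd45gip1, of the large subunit, was the lowest of these 5 at 9.97 and 9.6 TPM.

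Members with a bacterial counterpart had the higher median in both animals. The 43 genes with one had a median of 25.2 and 23.2 TPM, and the 29 genes without had 18.7 and 16.4 TPM; 6 genes were not assigned, of which Mrpl47 and Mrps28 were taken out of their class after the data were seen because it was unsure. Both classes reached from low to high: the former from Mrpl23 to Mrps21 and the latter from Mrpl39 to Mrpl42. The difference was larger in the small subunit, at 24.5 and 23.8 against 14.6 and 13.5 TPM, than in the large, at 26.6 and 22.9 against 23.6 and 21.3 TPM. These are medians over genes within 2 animals and were not tested.

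The genes that assemble and serve the mitoribosome were lower than its proteins. Of 26 assembly factors, 25 were detected, with a median of 7.3 and 6.08 TPM. The highest were Malsu1 at 20.7 and 23.3 TPM, the ribosome-binding factor Rbfa at 15.1 and 15.3 TPM and the GTPase Mtg1 at 12.8 and 11.6 TPM. Trmt61b was the one not detected. The 17 mitochondrial aminoacyl-tRNA synthetases, which charge the organelle's transfer RNAs, had a median of 6.8 and 6.35 TPM. They were led by Lars2 at 17.5 and 24.4 TPM, whose mean was 53.5 TPM in the second quantification, Iars2 at 20.6 and 17.7 TPM and Fars2 at 16.7 and 15.5 TPM.

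Factors that act in mitochondrial translation reached higher. The 15 genes had a median of 11.0 and 10.0 TPM. Slirp, which binds mitochondrial messenger RNA, was at 75.6 TPM in both animals, the elongation factor Tufm at 58.8 and 62.3 TPM and the elongation factor Gfm1 at 53.8 and 45.8 TPM. These 3 exceeded most ribosomal proteins of the organelle. The ribosomal RNAs themselves were far more abundant, with mt-Rnr2 of the large subunit at 67307 and 58788 TPM and mt-Rnr1 of the small at 43818 and 37476 TPM; ribosomal RNA was reduced before sequencing, so these are not native levels. The 13 mitochondrially encoded proteins had a median of 2536 and 2287 TPM, with mt-Co1, mt-Cytb and mt-Nd1 the highest in the first quantification. mt-Co1 was at 13584 and 12314 TPM, mt-Cytb at 6581 and 6207 TPM and mt-Nd1 at 5002 and 4522 TPM. That order did not hold in the second quantification, where mt-Atp6 had a mean of 8508 TPM, against 2884 in the first, and mt-Cytb 5739 and mt-Nd1 3837. mt-Nd3 at 5540 TPM and mt-Co3 at 5169 TPM, against 1268 in the first, also exceeded mt-Nd1 there. mt-Atp6, mt-Nd3 and mt-Co3 are named after their values were seen.

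The cytosolic ribosome provides a scale. Its 86 protein genes had a median of 202 and 181 TPM, led by Rplp1 at 685 and 591 TPM and Rps27 at 486 and 447 TPM. Of the mitoribosomal genes, none exceeded the median of the cytosolic set, the highest being Mrps21 at 151 TPM. Cytosolic ribosomal protein genes have many near-identical processed copies, so single values of that set can be divided among copies.

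**Figure D4:**
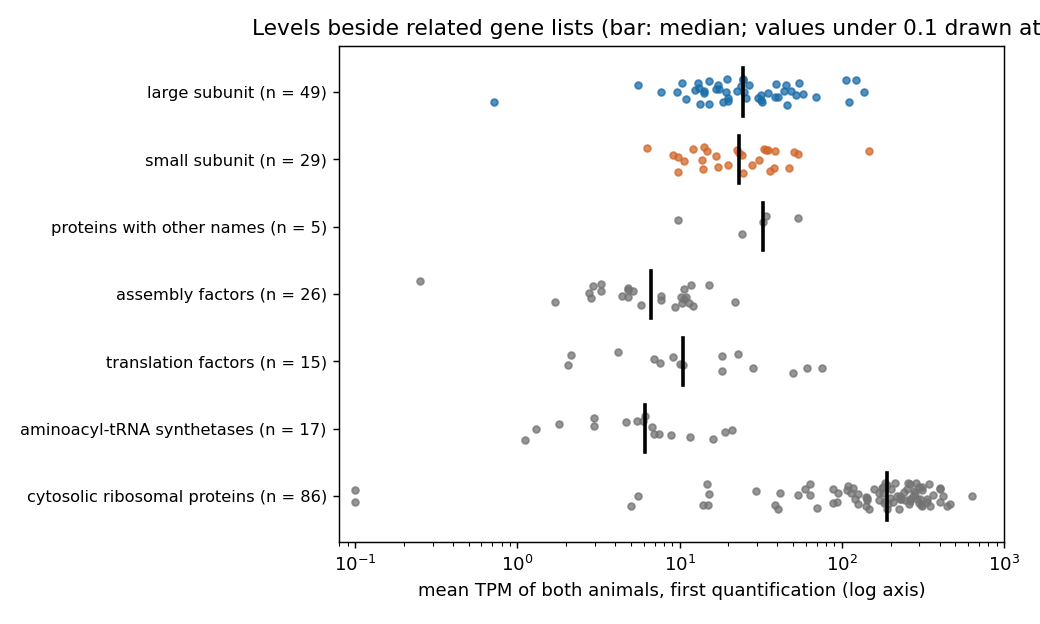
Mean TPM of both animals (log axis) for each gene of the 2 subunits and of 5 related lists; each point is a gene, the vertical bar is the median of the list, and values under 0.1 are drawn at 0.1. The 2 subunits overlap almost fully, assembly factors and synthetases lie to the left of them, and cytosolic ribosomal proteins lie to the right.

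Mitoribosomal genes differed little between the animals. The log2 ratio of replicate 2 over replicate 1, from counts scaled by TMM, could be taken for 77 members with at least 50 counts on average. Its median was 0.05, with 0.04 for the large and 0.06 for the small subunit, and the median of all 11127 genes tested was 0.00. The ratio was above 0 in 53 members and below in 24, beside 5499 and 5628 of all genes tested. The SD over the members was 0.11, against 0.36 over all genes, which include many of fewer counts. Over the 9533 detected nuclear protein-coding genes tested it was 0.24. A ratio within 0.25 of 0 was found for 96.1% of the members and for 74.7% of all genes.

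The direction of that small shift depended on the scaling. With scaling to the ERCC spike-ins the members' median was -0.07, with 17 of 77 on the side of replicate 2. Over all genes the median was then -0.12, with 2523 of 11127 on that side. A change of scaling moves every gene by the same amount, so it leaves the distance between the members and all genes as it was. In TPM, 64 of 78 members were lower in replicate 2, as were 7747 of the 9667 detected protein-coding genes. With TMM scaling, the cytosolic ribosomal proteins had a median of 0.05 as well, with 61 of 83 above 0 and an SD of 0.11.

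Of the 77, only Mrps25 and Mrps6 differed by at least 25% of the lower value. Mrps25, a small subunit protein with no bacterial counterpart (chr6:92169525-92184033, minus strand), had 388 and 497 counts and 12.6 and 15.2 TPM, a log2 ratio of 0.33. It was the 1 of 77 members at least 25% higher in replicate 2, where 6.59% of all genes were. Of the 9533 detected nuclear protein-coding genes tested, 465 were. Mrps6, the counterpart of bacterial S6 (chr16:92058270-92112227, plus strand), had 243 and 194 counts and 11.6 and 8.05 TPM, a log2 ratio of -0.34. It was the 1 member at least 25% higher in replicate 1, where 11.1% of all genes and 764 of those 9533 were. No member reached 2-fold in either direction, beside 0.683% of all genes higher in replicate 2 and 0.71% higher in replicate 1. Mrps25 fell short of 25% with spike-in scaling, at 0.21, and in the second quantification, at 0.31, and Mrps6 fell short in the second, at -0.30.

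**Figure D5:**
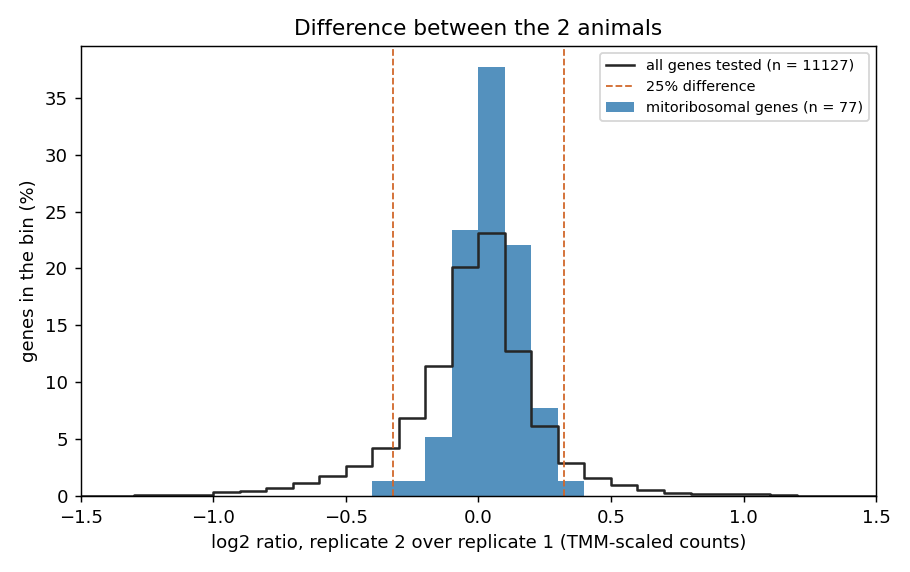
Share of genes (vertical, percent) by log2 ratio of replicate 2 over replicate 1 in bins of 0.1 (horizontal) for 77 mitoribosomal genes (bars) and all 11127 genes tested (line); dashed lines mark a difference of 25%, and 61 of all genes lie beyond the axis. The bars are narrower than the line, with 1 gene past each dashed line.

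Several mitoribosomal genes share a start region with another gene. In 17 of 78 members, 21.8%, the start of a protein-coding gene on the opposite strand lay upstream within 500 bases, compared with 10.4% of detected protein-coding genes. The member was the higher of the pair in 14 of 17. Partners did not have to be detected, and the same share was not computed for other genes with such a neighbour. The count is therefore not shown to be particular to the members. Mrpl30 and Mitd1 start 66 bases apart and had mean levels of 138 and 0.425 TPM, and Mrpl51 and Ncapd2 start 100 bases apart at 106 and 3.39 TPM. Mrpl54 and Apba3, 26 bases apart, were nearly equal at 45.1 and 43.0 TPM. Mrpl49 was the lower of its pair at 10.9 TPM beside Fau, the gene of a cytosolic ribosomal protein fused to a ubiquitin-like protein, at 209.6 TPM. A shared start region thus went with levels from nearly equal to far apart.

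Mrps12 and Sars2, the mitochondrial seryl-tRNA synthetase, form such a pair of mitochondrial translation genes, with starts 172 bases apart and levels of 16.7 and 5.95 TPM. Mrpl46 and Mrps11 are 2 members on opposite strands of chromosome 7 whose starts overlap by 413 bases. Mrpl46 had 14.5 and 11.3 TPM and Mrps11 had 15.4 and 12.7 TPM, with log2 ratios of -0.20 and -0.09. Whether the counting used strand is not given in the sources used here, so reads in the overlap cannot be assigned with certainty. Members were found on 17 chromosomes, with 11 on chromosome 11 and 0 on the X chromosome. The share of all genes on each chromosome was not computed, so an uneven spread was not tested.

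Promoters were searched for motifs of factors known for genes of mitochondrial proteins. RefSeq promoters (GRCm38.p6, 250 bases before and 50 bases after the start) were matched by Entrez identifier, or by symbol where that failed. A promoter was found for 69 of 78 members. On either strand, the core GCATGCG of nuclear respiratory factor 1 was found in 8, 11.6%, against 7.35% of the promoters of detected protein-coding genes and 3.65% of all 27025 promoters. The core CCGGAAG of ETS factors, which include the nuclear respiratory factor GABP, was in 24, or 34.8%, against 20.4% and 9.16%. The YY1 motif AAGATGGCG was in 8, or 11.6%, against 3.81% and 1.49%. At least 1 of the 3 was in 34, or 49.3%, against 28.8% and 13.3%.

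Other motifs were not more common than in detected protein-coding genes. TATAAA was in 5.8%, against 6.85% of the promoters of detected protein-coding genes and 14.2% of all, and the E-box CACGTG in 7.25%, against 11.1% and 7.21%. Members with the ETS core had a median of 32.2 TPM (n = 24) and those without had 18.4 TPM (n = 45). For the core of nuclear respiratory factor 1 the order was the opposite, at 17.5 TPM (n = 8) and 24.1 TPM (n = 61). A match is a description of the letters and no measurement of binding. Some windows lie far from the annotated gene start: 17016 bases for Mrpl33, 7979 for Mrps24, 3185 for Mrpl35 and 2496 for Mrpl36. Each of these genes was counted with at least 1 motif. Mrps24, Mrpl35 and Mrpl36 are among the 8 members with the YY1 motif. Mrpl33 was counted with the ETS core and the core of nuclear respiratory factor 1. The 250 bases upstream of the start are shown for 2 members with both the ETS core and the core of nuclear respiratory factor 1, and for Mrps18a, which has the ETS core and, after the start, the YY1 motif. Capitals mark motif letters on either strand, and CGCATGCG is GCATGCG on both strands overlapping by all but 1 base. In order, the windows are chr7:105811088-105811337 on the minus strand, chr11:58171414-58171663 on the plus strand and chr17:46110754-46111003 on the plus strand.
Mrpl17: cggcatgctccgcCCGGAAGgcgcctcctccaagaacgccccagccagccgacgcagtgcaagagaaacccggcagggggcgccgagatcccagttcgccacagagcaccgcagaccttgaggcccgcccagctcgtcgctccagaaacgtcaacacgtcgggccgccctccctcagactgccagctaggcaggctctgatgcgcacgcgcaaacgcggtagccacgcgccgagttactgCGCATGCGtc
Mrpl22: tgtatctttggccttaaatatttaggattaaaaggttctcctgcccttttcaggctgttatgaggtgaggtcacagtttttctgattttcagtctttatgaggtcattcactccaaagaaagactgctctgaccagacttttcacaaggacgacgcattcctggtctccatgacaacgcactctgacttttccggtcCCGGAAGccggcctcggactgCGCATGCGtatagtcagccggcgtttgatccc
Mrps18a: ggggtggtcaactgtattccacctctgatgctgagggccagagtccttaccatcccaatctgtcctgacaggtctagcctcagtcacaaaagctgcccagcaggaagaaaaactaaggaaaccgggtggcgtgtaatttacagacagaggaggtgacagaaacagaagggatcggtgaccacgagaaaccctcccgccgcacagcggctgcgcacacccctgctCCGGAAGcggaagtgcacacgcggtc
In Mrpl22 both motifs lie near the start, whereas in Mrpl17 they lie at opposite ends of the window. Mrpl17 was at 53.0 and 50.6 TPM and Mrpl22 at 16.2 and 14.01 TPM, so 2 promoters with the same pair of motifs went with different levels. Mrps18a was at 38.9 and 37.4 TPM.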

How the data were processed

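Total RNA of 2 libraries, 1 per animal, was analysed. For each, the authors deposited gene and transcript tables in the layout of RSEM (the first quantification) and a transcript table in the layout of kallisto (the second). Build mm10 and annotation M21 are named per the labels; which programs made the tables is not given in the sources used here. Expected counts, as deposited, are estimated and not normalized. The deposited TPM values are scaled over all features, spike-ins included, so abundant RNAs lower the rest. The deposited percent values give a transcript's share of its gene, and the posterior SD, a score deposited beside each count, gives its uncertainty.

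Symbols came from the second quantification and positions from GENCODE M21; transcript TPM of the second was summed to genes. Log2 ratios used rounded expected counts, edgeR 4.0.16 (R 4.3.3), TMM, a prior count of 2 and a mean count of at least 50; the steps were tested on simulated data. Detected means at least 1 TPM in both animals. Values are per animal or mean ± SD (n = 2). A count of 0 allows up to 3 counts per library. Pseudogenes were compared with blastn 2.17.0 and Biopython 1.88; tables used Python 3.11.15 and pandas 2.3.3.

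The members, gene lists, motifs and alternatives were chosen with earlier results of these data known. Named genes are the 8 highest and 5 lowest members of each subunit by mean TPM, members at least 25% different between animals, members at least 1.5-fold different between quantifications or with a posterior SD above 5% of the mean, the Mrps18 paralogs, Mrps30, Mrps36, members with other names, the 3 highest of each related list, and the highest and lowest of each class by bacterial counterpart. Members named for their transcripts, pseudogenes, neighbours or promoters, and the classes of transcript, were chosen after their values were seen. Alternatives tried were scaling to spike-ins or by DESeq2 1.42.0, other priors and minimums, the second quantification, posterior mean TPM, rescaling over nuclear protein-coding genes, other assignments of subunits and leaving out each animal. 1 gene that the rule takes from a related list is not reported here. Protein sequences were not used here.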

Additional observations from a re-analysis of the deposited data

Results flagged for a closer look

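Reads were assigned to 2 pseudogenes that the choice of members leaves out. Mrpl23-ps1 had a mean expected count of 910.4 over both animals, above the 3 counts that a count of 0 allows, while the second quantification listed it at 0. Mrpl48-ps had a mean of 90.7 counts, with 108 in replicate 1 and 72.9 in replicate 2. Values that stand apart from the rest of a group could not be sought with 2 animals.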

How the results depend on the processing

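No paired analysis was possible because 1 group holds both animals. Leaving out each animal gave ratios of the medians of 0.935 to 1.03, and the sums were 1579 to 1720 TPM for the large and 808.6 to 861.1 for the small subunit. Medians were 21.45 to 25.21 and 22.93 to 24.42 TPM, and means 32.23 to 35.1 and 27.88 to 29.69 TPM. Rescaled over nuclear protein-coding genes, the sums were 3607 and 1827, the medians 50.91 and 51.8 and the means 73.62 and 62.99. With coding transcripts only, an alternative chosen after seeing the data, the sums were 1253 and 643.2 TPM, the medians 18.77 and 14.79, the means 25.58 and 22.18 and the ratio of the medians 1.27. The second quantification gave a sum of 1550 and a mean of 31.63 TPM for the large subunit. The sum of the small subunit was 740.0 TPM by structure and 979.8 with the proteins of other names. The ratio was 1.17 from means and 1.06 with Mrpl23-ps1 added to Mrpl23, also chosen after seeing the data. Spike-in scaling turned the median log2 ratio to -0.07, with 17 of 77 members higher in replicate 2, beside 2523 of all 11127 genes. Of those 17 members, 0 were higher by at least 25%, and 2 members were 25% higher in replicate 1, Mrps6 and Mrpl21. Count minimums of 10 or none gave 2 members at least 25% higher in replicate 2, the second being Mrpl23 at 1.26. The second quantification gave 0 in each direction. The cause was not tested. Thresholds of 0.5 and 5 TPM and the second quantification detected 76 to 78 members. With 2 animals, an SD is imprecise.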
